A study of Homo sapiens with 12 samples.

Results

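The CCAAT/enhancer-binding proteins (C/EBPs) were described through their genes *CEBPA*, *CEBPB*, *CEBPD*, *CEBPE* and *CEBPG*, which were found by symbol. These 5 genes were found among the 59251 genes of the count table, and all 5 were among the 13318 genes with enough reads to be tested. RNA-Seq was performed on total RNA from HL60 cells (labelled HL-60), an established human myeloid leukemia cell line. There were 12 libraries in 4 groups of 3, which the labels call biological replicates. Non-treated cells (labelled untreated) received neither drug. The ATRA group received 1 µM all-trans retinoic acid, a ligand of the retinoic acid receptors, and the CDK4/6i group received 1 µM palbociclib, an inhibitor of the cyclin-dependent kinases CDK4 and CDK6. The CDK4/6i+ATRA group (labelled combination) received 1 µM of each, and the drugs were given for 48 h. One cell line was used, so the values describe that line, and the labels name no vehicle for the non-treated cells.

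C/EBPs are basic leucine zipper transcription factors that bind DNA as homodimers or heterodimers with each other. In the myeloid lineage, C/EBPα commits progenitors to the granulocyte and monocyte lineages and restrains the cell cycle, C/EBPε is needed for the late granulocytic steps in which secondary granule proteins are made, and C/EBPβ and C/EBPδ are induced by cytokines and drive emergency granulopoiesis and inflammatory genes. C/EBPγ has the DNA-binding and zipper regions but lacks the activation domain of the others, and pairs with them and with the stress factor ATF4.

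In the annotation deposited with the counts (hg38), *CEBPA* is a single-exon gene on the minus strand of chromosome 19 from base 33299934 to 33302534. *CEBPG*, with 3 exons on the plus strand of the same chromosome, runs from 33373709 to 33382686, and 71175 bases separate these genes. *CEBPB* is a single-exon gene on the plus strand of chromosome 20 from 50190583 to 50192690. *CEBPE* has 2 exons on the minus strand of chromosome 14 from 23117306 to 23119255, and *CEBPD* has a single exon of 1252 bases. The 250 bases in front of the start site are shown for the 4 members that matched the RefSeq promoter table (GRCh38.p14), so that their letters can be read beside the responses of the genes. They are written 5′ to 3′ on the strand of the gene, and capitals mark the matches of the motifs named after them.
CEBPA, chr19:33302535-33302784, minus strand: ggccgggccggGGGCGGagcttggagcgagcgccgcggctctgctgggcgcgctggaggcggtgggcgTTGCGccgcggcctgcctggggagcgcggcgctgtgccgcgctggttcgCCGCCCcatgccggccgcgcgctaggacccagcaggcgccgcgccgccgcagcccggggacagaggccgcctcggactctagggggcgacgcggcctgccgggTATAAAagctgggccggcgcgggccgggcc
CEBPG, chr19:33373459-33373708, plus strand: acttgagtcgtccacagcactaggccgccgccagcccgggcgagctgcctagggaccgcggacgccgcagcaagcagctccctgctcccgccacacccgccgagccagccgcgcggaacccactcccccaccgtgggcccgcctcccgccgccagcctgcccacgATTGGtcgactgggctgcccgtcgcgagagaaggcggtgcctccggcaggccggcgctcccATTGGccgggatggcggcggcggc
CEBPB, chr20:50190333-50190582, plus strand: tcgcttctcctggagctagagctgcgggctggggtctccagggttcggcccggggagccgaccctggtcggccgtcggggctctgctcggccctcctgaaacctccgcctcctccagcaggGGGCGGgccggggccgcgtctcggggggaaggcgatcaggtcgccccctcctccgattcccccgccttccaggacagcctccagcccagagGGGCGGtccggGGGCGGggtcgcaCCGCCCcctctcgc
CEBPE, chr14:23119256-23119505, minus strand: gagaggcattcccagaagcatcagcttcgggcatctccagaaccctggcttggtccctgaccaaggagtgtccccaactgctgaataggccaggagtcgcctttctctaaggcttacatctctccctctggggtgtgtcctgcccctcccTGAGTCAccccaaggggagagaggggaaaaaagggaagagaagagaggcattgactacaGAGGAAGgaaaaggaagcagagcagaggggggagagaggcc

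The windows of *CEBPA*, *CEBPG* and *CEBPB* were rich in CpG, with 41, 32 and 25 CpG dinucleotides and a GC content of 81.2%, 76.0% and 75.6%. The *CEBPE* window held 2 CpG at a GC content of 57.2%. Over the 35116 windows of the table the medians were 11 CpG and 58.0%. Both strands were searched for 10 motifs, and a match is a description of the letters, not evidence of binding. TATAAA stood in *CEBPA* alone, 30 to 25 bases in front of the start, and was found in 10.7% of all windows. TTGCG, the half-site of the C/EBP palindrome, stood in *CEBPA* from 182 to 178 bases in front of the start and was found in 16.8% of all windows. The GC box GGGCGG matched at 4 places in *CEBPB* and 2 in *CEBPA* (42.6% of all windows). CCAAT matched on the reverse strand at 2 places in *CEBPG* (32.0%). *CEBPE* held the AP-1 letters TGANTCA from 100 to 94 bases in front of the start (6.57%) and the ETS purine box GAGGAAG from 41 to 35 bases in front of it (11.2%). The other 4 motifs had no match in these 4 windows. They were the whole palindrome TTGCGCAA (0.131% of all windows), the C/EBP-ATF composite TGATGCAA (0.772%), the nuclear receptor half-site AGGTCA (12.1%) and the E2F letters GGCGGGAA (2.72%).

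The libraries held 12230923 to 18679544 counts, with the 3 smallest in CDK4/6i+ATRA. The TMM factors, which correct library sizes for RNA composition, were 0.840 to 0.893 in CDK4/6i+ATRA and 1.03 to 1.07 in the other groups. The 10 granulocytic and promyelocytic markers summed to 6927 to 7271 CPM (counts scaled to the size of the library) in non-treated cells, 4063 to 4203 with CDK4/6i, 1203 to 1247 with ATRA and 1696 to 1751 with both drugs. Without *MPO*, the most abundant of them in non-treated cells, the other 9 summed to 588 to 605, 649 to 661, 915 to 947 and 1670.0 to 1717 CPM in the same order. Of that last sum, *SPI1* made up 855 CPM and *ITGAM* 590 CPM, from 302 and 9.24 CPM in non-treated cells. Among the other markers *CSF3R* also rose with both drugs, *CTSG* and *MS4A3* fell, and *CD33* changed by 0.09 on the log2 scale. Of these markers, 3 (*ELANE*, *AZU1* and *PRTN3*) were listed at 0 in every library, and these genes are also annotated on an alternate contig. Whether these zeros measure expression was not tested, and they add nothing to the sums. The summed monocytic markers were 0.125 to 0.601 CPM in non-treated cells and 12.6 to 16.2 CPM in CDK4/6i+ATRA, with 3 of those 6 genes at or under 3 counts in every CDK4/6i+ATRA library. The 5 megakaryocytic markers summed to 1.68 to 3.04 CPM in non-treated cells, 7.26 to 9.23 with CDK4/6i and 8.65 to 10.7 with both drugs, and the 4 T cell markers to 2.13 to 2.22 CPM in non-treated cells and 0.825 to 1.16 with both drugs. Their part in the results was not tested. Of 13 genes tested from a list of retinoid-induced genes, 13 rose with ATRA, but 4 had at most 3 counts in every non-treated library and were tested only because they were high elsewhere. *CD38*, one of the 13, went from 0.179 ± 0.263 to 399.5 ± 8.08 CPM (SD, n = 3).

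The family split into 3 patterns. *CEBPA* and *CEBPG* fell with each drug and further with both. *CEBPB* and *CEBPD* rose with ATRA and rose further with CDK4/6i+ATRA, but the further rise of *CEBPB* was not called with libraries scaled by their totals alone. *CEBPE* rose most with ATRA alone and less with both drugs. CPM here are TMM-normalized, so that they can be compared between libraries for one gene. A gene was called where edgeR's quasi-likelihood test gave an adjusted p (Benjamini-Hochberg over the 13318 genes tested) under 0.05. With ATRA, 5 of 5 members were called, 3 higher and 2 lower, where 67.6% of all tested genes were called, 32.1% higher and 35.5% lower. With CDK4/6i, 4 of 5 were called, 2 in each direction, against 56.2% of all genes, 28.3% higher and 27.9% lower. With CDK4/6i+ATRA, 5 of 5 were called, 3 higher and 2 lower, against 81.7% of all genes, 41.0% higher and 40.7% lower. Most genes moved in these cells, so a called member is not by itself unusual. The libraries of a pair of groups did not overlap for 60.7% to 81.8% of all tested genes over the 6 pairs of groups, and for the members they did not overlap in 29 of 30 pairs. The comparisons with non-treated cells share those 3 libraries. In bulk RNA, fewer cells of a type and less RNA per cell cannot be told apart.

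**Figure D1:**
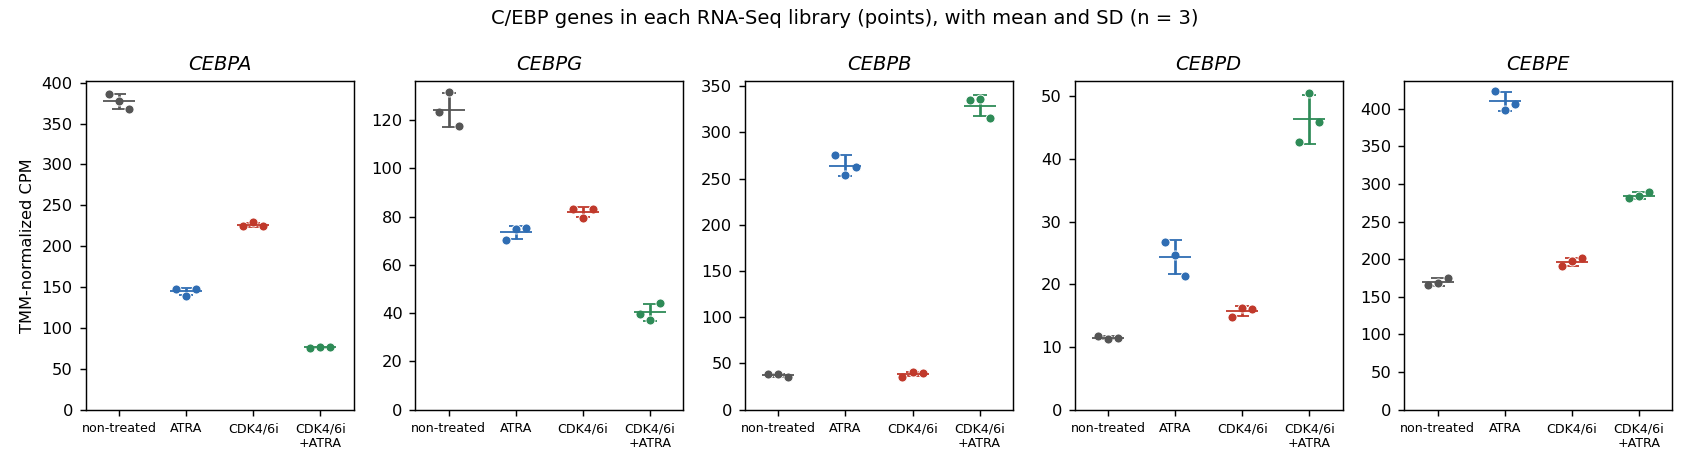
TMM-normalized CPM of each C/EBP gene in the 12 libraries, with a point for each library and lines for the group mean and SD (n = 3). *CEBPA* and *CEBPG* are lowest with CDK4/6i+ATRA, *CEBPB* and *CEBPD* are highest there, and *CEBPE* is highest with ATRA alone (398.6 to 424 CPM).

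*CEBPA* was at 386, 377 and 368 CPM in the 3 non-treated libraries and at 224, 229 and 225 CPM with CDK4/6i. It was at 148, 139.7 and 147 CPM with ATRA and at 75.5, 76.9 and 76.6 CPM with CDK4/6i+ATRA. No group overlapped another, and non-treated cells were highest, followed by the CDK4/6i, the ATRA and the combined group. Relative expression was 0.600 ± 0.00720 with CDK4/6i, 0.384 ± 0.0119 with ATRA and 0.203 ± 0.00195 with CDK4/6i+ATRA (SD, n = 3; non-treated mean as 1). The log2 fold change was -0.74 (SE 0.0355) with CDK4/6i, -1.38 (SE 0.0368) with ATRA and -2.30 (SE 0.0414) with CDK4/6i+ATRA, with adjusted p of 1.04e-23, 9.34e-35 and 8.29e-43 by edgeR. Adding the second drug lowered the gene in either order, by -1.57 against CDK4/6i alone (adjusted p = 4.9e-35) and by -0.92 against ATRA alone (adjusted p = 1.3e-24, edgeR).

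*CEBPG* was at 123, 131 and 118 CPM in non-treated cells and at 83.2, 79.4 and 83.3 CPM with CDK4/6i. It was at 70.2, 74.7 and 75.4 CPM with ATRA and at 39.7, 37.4 and 44.3 CPM with CDK4/6i+ATRA. The order of the groups was that of *CEBPA*, again without overlap. Relative expression was 0.660 ± 0.0179, 0.592 ± 0.0227 and 0.326 ± 0.0285 with CDK4/6i, ATRA and both (SD, n = 3). The log2 fold changes were -0.60, -0.76 and -1.61, with adjusted p of 2.2e-15, 3.23e-19 and 1.72e-30 by edgeR. The difference between ATRA and CDK4/6i was small but passed the test (-0.16, adjusted p = 0.00464, edgeR), whereas for *CEBPA* it was -0.64 (adjusted p = 7.03e-21).

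*CEBPB* was at 38.5, 38.2 and 35.2 CPM in non-treated cells and at 35.7, 40.5 and 39.3 CPM with CDK4/6i. These 2 groups overlapped, and they were the only pair of groups that overlapped for any of the 5 members. With CDK4/6i the log2 fold change was 0.04 (SE 0.0579, adjusted p = 0.536, edgeR), with a 95% interval of 0.951-fold to 1.12-fold. ATRA took the gene to 276, 254 and 263 CPM, and CDK4/6i+ATRA to 334, 336 and 316 CPM. All 6 libraries with ATRA stood well above the 6 without it. Relative expression was 7.08 ± 0.296 with ATRA and 8.82 ± 0.304 with CDK4/6i+ATRA (SD, n = 3). The log2 fold change was 2.83 (SE 0.0479, adjusted p = 2.93e-43) with ATRA and 3.14 (SE 0.0483, adjusted p = 1.03e-45) with both drugs by edgeR. The further rise from ATRA to CDK4/6i+ATRA was 0.32 (SE 0.0393, adjusted p = 6.95e-10, edgeR), but with libraries scaled by their totals alone it was 0.01 (adjusted p = 0.812). Of the 2108 exon bases of *CEBPB*, 561 are shared with *CEBPB-AS1* on the opposite strand, which had 0 to 6 counts in each library. The strand setting of the counting is not given in the sources used here.

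*CEBPD* was the member with the fewest counts, 180 to 566 per library. It was at 11.7, 11.3 and 11.4 CPM in non-treated cells and at 14.8, 16.3 and 16.0 CPM with CDK4/6i. It was at 26.8, 24.7 and 21.4 CPM with ATRA and at 42.6, 50.5 and 45.9 CPM with CDK4/6i+ATRA. The 4 groups did not overlap, and unlike *CEBPB* this gene also rose with CDK4/6i alone. Relative expression was 1.37 ± 0.0694 with CDK4/6i, 2.12 ± 0.237 with ATRA and 4.04 ± 0.343 with CDK4/6i+ATRA (SD, n = 3). The log2 fold changes were 0.45 (SE 0.0968), 1.08 (SE 0.0910) and 2.01 (SE 0.0876), with adjusted p of 8.26e-05, 5.78e-15 and 2.28e-26 by edgeR. Against ATRA alone CDK4/6i+ATRA was 0.93 higher (adjusted p = 4.09e-15), beside 0.32 for *CEBPB*, and the difference between the genes was not tested.

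*CEBPE* was at 165, 169 and 175 CPM in non-treated cells and at 191, 198 and 201 CPM with CDK4/6i. It was at 424, 398.6 and 407 CPM with ATRA and at 281, 283 and 289 CPM with CDK4/6i+ATRA. The groups did not overlap, and CDK4/6i+ATRA lay between CDK4/6i and ATRA. Relative expression was 1.16 ± 0.0305 with CDK4/6i, 2.42 ± 0.0759 with ATRA and 1.68 ± 0.0251 with CDK4/6i+ATRA (SD, n = 3). The log2 fold changes were 0.21 (SE 0.0384), 1.27 (SE 0.0374) and 0.75 (SE 0.0386), with adjusted p of 4.98e-06, 5.84e-33 and 2.8e-23 by edgeR. From ATRA to CDK4/6i+ATRA the gene fell by 0.53 on the log2 scale (adjusted p = 8.24e-18), so it was slightly higher with CDK4/6i in cells without ATRA and lower with CDK4/6i in cells with ATRA. With libraries scaled by their totals alone, the change with CDK4/6i+ATRA was 0.48 against non-treated cells, 0.26 instead of 0.53 against CDK4/6i and -0.83 against ATRA, and each was still called.

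Across the remaining pairs of groups all 5 members were called as well. Between CDK4/6i+ATRA and CDK4/6i, 3 were higher and 2 lower, where 78.6% of all tested genes were called, 39.1% higher and 39.5% lower. Between CDK4/6i+ATRA and ATRA, 2 were higher (*CEBPB* and *CEBPD*) and 3 lower (*CEBPA*, *CEBPG* and *CEBPE*), where 69.8% were called, 36.9% higher and 32.8% lower. Between ATRA and CDK4/6i, 3 were higher with ATRA and 2 lower, where 70.8% were called.

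Whether the effect of one drug depended on the other was asked with the interaction, the log2 difference between the observed fold of both drugs and the product of their single folds. It was called for 5 of 5 members, 2 above and 3 below the product, where 51.4% of all tested genes were called, 24.5% above and 27.0% below. *CEBPE* had the interaction of greatest size of the 5, -0.74 (SE 0.0533, adjusted p = 8.27e-17, edgeR). Its single folds multiplied would give 475 CPM, and 284 CPM were measured. *CEBPD* stood above the product (46.3 against 33.2 CPM), with an interaction of 0.48 (SE 0.125, adjusted p = 0.000969) that was 0.16 (adjusted p = 0.279) with libraries scaled by their totals alone. *CEBPB* was at 329 CPM where the product gave 273 CPM, an interaction of 0.27 (SE 0.0700, adjusted p = 0.000928) that turned to -0.05 (adjusted p = 0.628) with the totals alone and was 0.19 (adjusted p = 0.0635) when genes with very low counts were kept in the fit. *CEBPG* (-0.26, adjusted p = 0.00337) and *CEBPA* (-0.19, adjusted p = 0.00467) stood below the product, at 40.4 against 48.5 CPM and 76.4 against 86.9 CPM. With the totals alone their interactions were -0.58 (adjusted p = 3.93e-08) and -0.51 (adjusted p = 2.13e-10). The sign of these departures depends on the scale: if the differences in CPM added up, *CEBPG* would be at 31.3 CPM and *CEBPA* at -6.12 CPM, and both were measured above that.

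Scaling by the totals alone moved the median log2 change of all tested genes to -0.25 for both drugs against neither, -0.28 against CDK4/6i, -0.26 against ATRA and -0.34 for the interaction, against 0.02, 0.00 (0.00142), 0.04 and -0.02 with TMM. The share of calls that were higher went from 49.8% to 36.7% against CDK4/6i, from 53.0% to 31.6% against ATRA and, for the interaction, from 47.5% to 18.5%.

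**Figure D2:**
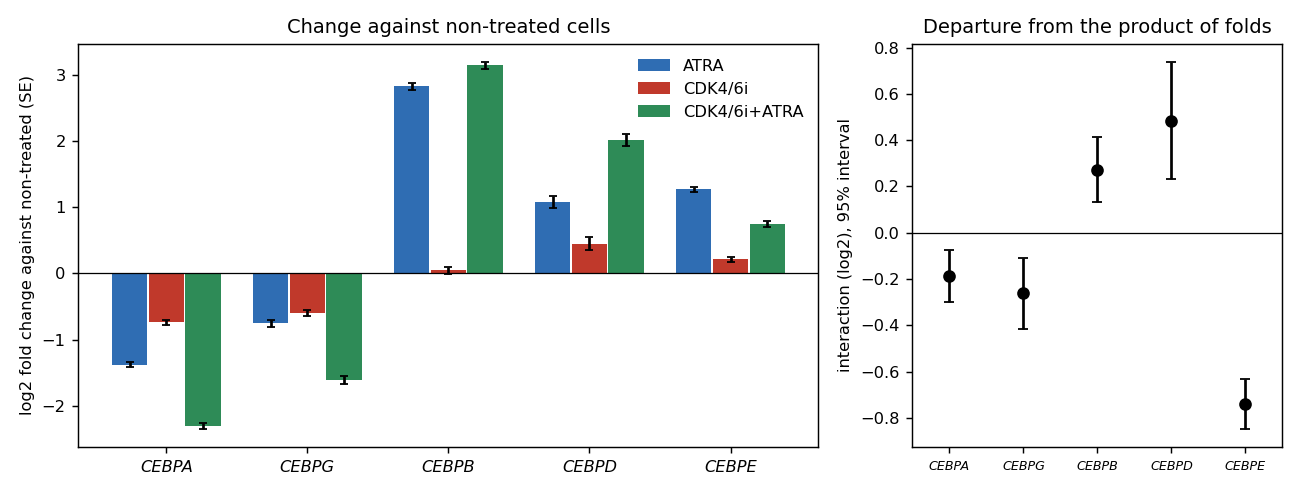
Left, log2 fold change of each C/EBP gene against non-treated cells with ATRA (blue), CDK4/6i (red) and both (green), as bars with the SE, and right, the log2 interaction of the drugs with its 95% interval. *CEBPE* is higher with ATRA (1.27) than with both drugs (0.75) and has an interaction of -0.74, and the positive interactions of *CEBPB* (0.27, which turns to -0.05) and *CEBPD* (0.48, which goes to 0.16) lose their calls with libraries scaled by their totals alone.

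**Figure D3:**
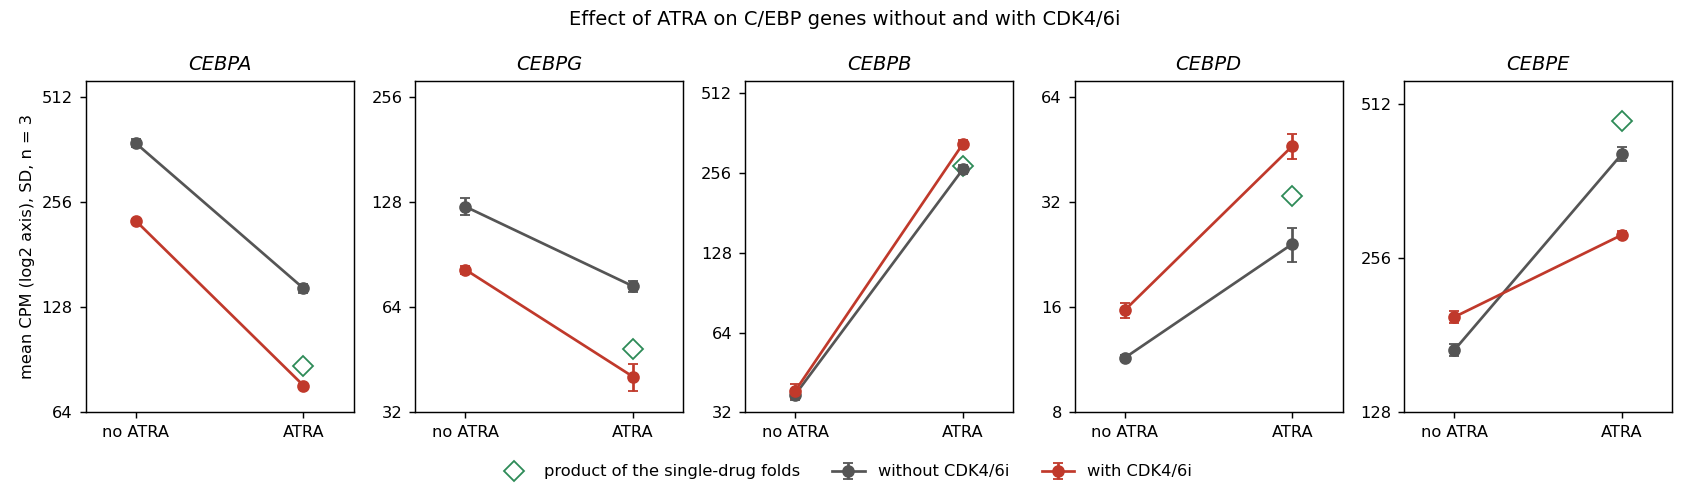
Mean CPM (SD, n = 3, log2 axis) of each C/EBP gene without and with ATRA, in grey without and in red with CDK4/6i, and the level that the product of the single-drug folds would give (green diamond). The lines of *CEBPE* cross, with 284 CPM measured against 475 from the product, and for *CEBPB* the measured level is above the diamond with TMM but not with libraries scaled by their totals alone.

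To compare levels between members, counts were also divided by exon length (RPKM). In non-treated cells *CEBPA* (145 ± 3.59 RPKM) and *CEBPE* (142 ± 4.03 RPKM) were the most abundant members and overlapped across their libraries. *CEBPG* followed at 29.3 ± 1.65, *CEBPB* at 17.7 ± 0.859 and *CEBPD* at 9.15 ± 0.182 RPKM (SD, n = 3). With CDK4/6i, *CEBPE* at 165 ± 4.35 RPKM was above *CEBPA* at 86.9 ± 1.04 RPKM. *CEBPG* (19.4 RPKM) and *CEBPB* (18.3 RPKM) overlapped there, above *CEBPD* at 12.5 RPKM. With ATRA, *CEBPE* reached 344 ± 10.8 RPKM, *CEBPB* 125 ± 5.23 and *CEBPA* 55.7 ± 1.73 RPKM. *CEBPD* (19.4 RPKM) and *CEBPG* (17.4 RPKM) overlapped. With CDK4/6i+ATRA the order was *CEBPE* (239 ± 3.58 RPKM), *CEBPB* (156 ± 5.37), *CEBPD* (37.0 ± 3.14), *CEBPA* (29.4 ± 0.282) and *CEBPG* (9.56 ± 0.835), and no neighbours in that order overlapped. *CEBPA* thus went from the top of the family to the fourth place of 5, and *CEBPE* held or shared the first place in all 4 groups.

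The RPKM of the 5 genes summed to 343 ± 1.67 without drugs and to 562 ± 17.9 under ATRA. The sum was 302 ± 6.30 under CDK4/6i and 471 ± 4.79 under both (SD, n = 3). Shares of this sum do not depend on the scaling between libraries. Each drug was tested over both levels of the other by a two-sided exact permutation test within strata, which has 400 arrangements and a smallest p of 0.005, and 10 such tests were adjusted together. The share of *CEBPA* went from 42.2% in non-treated cells to 28.8% with CDK4/6i, 9.92% with ATRA and 6.24% with both. The share of *CEBPB* went from 5.15% to 6.04%, 22.3% and 33.1% in the same order, that of *CEBPD* from 2.67% to 4.15%, 3.45% and 7.85%, and that of *CEBPG* from 8.54% to 6.41%, 3.10% and 2.03%. For these 4 genes both drugs gave p = 0.005 in the exact permutation test (adjusted p = 0.00625). The shares add up to the whole, so a share can change while the level of its gene does not. *CEBPB* itself was not called with CDK4/6i (0.04, adjusted p = 0.536, edgeR). *CEBPE* made up 41.5% in non-treated cells, 54.6% with CDK4/6i, 61.2% with ATRA and 50.7% with both. ATRA added 19.8 percentage points to it without CDK4/6i and took away 3.88 points with it, and the test over both gave p = 0.1 (exact permutation, adjusted p = 0.111). CDK4/6i added 13.2 points without ATRA and took away 10.5 points with it (p = 0.595, exact permutation). With CPM in place of RPKM, the mean change of the *CEBPE* share with ATRA was 11.3 instead of 7.96 points and passed the exact permutation test (adjusted p = 0.00556). By CPM the share was 35.2% with CDK4/6i and 36.6% with both drugs, so the loss with ATRA in the presence of CDK4/6i was not seen.

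The ratio of *CEBPB* to *CEBPA* in RPKM summarised the shift between their mRNAs, and protein was not measured in these libraries. It was 0.122 ± 0.00345 in non-treated cells, 0.210 ± 0.0119 with CDK4/6i, 2.25 ± 0.0505 with ATRA and 5.32 ± 0.201 with CDK4/6i+ATRA (SD, n = 3), without overlap between groups. Relative to non-treated cells this was 1.72, 18.4 and 43.6 times. The ratio of *CEBPE* to *CEBPB* went from 8.07 ± 0.631 in non-treated cells to 2.75 ± 0.0312 with ATRA and 1.53 ± 0.0762 with both drugs. With CDK4/6i it was 9.05 ± 0.418, overlapping the non-treated libraries.

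**Figure D4:**
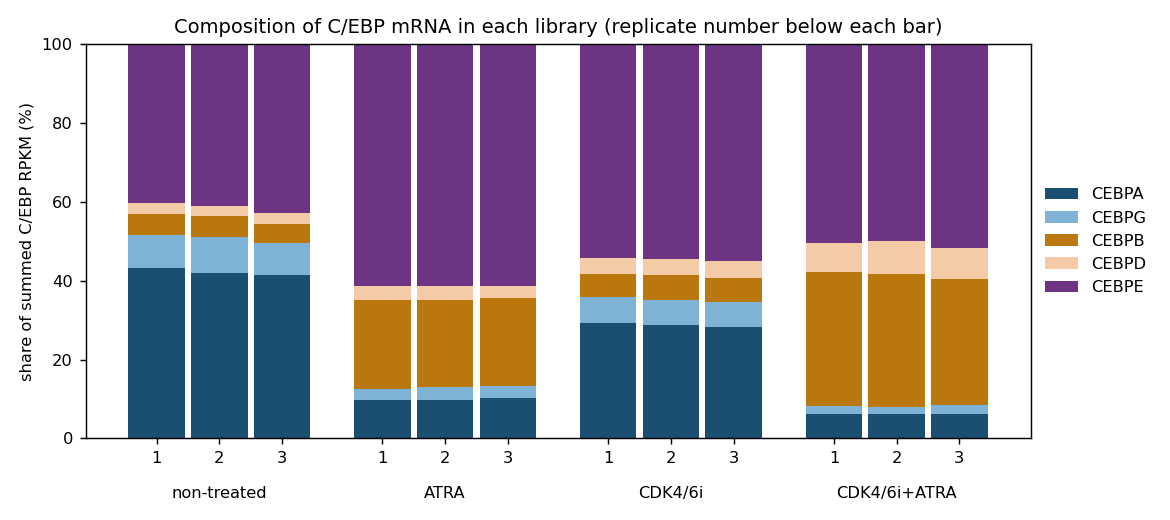
Share in percent of each C/EBP gene in the summed RPKM of the 5 genes, as 1 stacked bar for each of the 12 libraries. *CEBPA* shrinks from a mean of 42.2% in non-treated cells to 6.24% with CDK4/6i+ATRA while *CEBPB* grows from 5.15% to 33.1%.

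Near *CEBPA*, the divergent transcript *CEBPA-DT*, whose annotated start lies 287 bases away, went from 4.99 CPM in non-treated cells to 1.59 CPM with ATRA and 0.591 CPM with CDK4/6i+ATRA. These falls passed the test (-1.65, adjusted p = 2.85e-08, and -3.08, adjusted p = 3.27e-12, edgeR). With CDK4/6i it was at 4.39 CPM and did not pass (-0.19, adjusted p = 0.434), where *CEBPA* itself fell by 0.74. *LRP3*, a lipoprotein receptor relative 91070 bases from *CEBPA*, fell with ATRA from 293 to 65.5 CPM and with both drugs to 11.1 CPM (-4.72, adjusted p = 2.34e-47). *PEPD*, a dipeptidase gene 4264 bases from *CEBPG*, rose with CDK4/6i (0.32, adjusted p = 9.67e-06) and fell with both drugs (-0.47, adjusted p = 3.03e-08).

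Within 100 kb of *CEBPB*, the noncoding RNA *PELATON*, 74788 bases away, went from 0.592 CPM in non-treated cells to 35.2 CPM with ATRA and 50.8 CPM with both drugs (log2 fold changes of 5.86 and 6.40, adjusted p = 6.23e-35 and 7.68e-38, edgeR). With CDK4/6i alone it was at 0.956 CPM and did not pass (adjusted p = 0.0902). *PEDS1*, 36860 bases away, did not pass with ATRA (-0.03, adjusted p = 0.715) but passed with CDK4/6i (0.22, adjusted p = 0.0106) and with both drugs (0.19, adjusted p = 0.0272). Near *CEBPD*, *SPIDR* (607 bases away) and *PRKDC* (34947 bases away), which serve DNA repair, both fell with CDK4/6i+ATRA while *CEBPD* rose, by 0.57 and 1.99 on the log2 scale (adjusted p = 5.5e-08 and 1.79e-39). Near *CEBPE*, the amino acid transporter *SLC7A8*, 6040 bases away, fell with CDK4/6i+ATRA from 7.81 to 0.939 CPM (-3.05, adjusted p = 3.32e-16), and *C14orf119* did not pass (-0.12, adjusted p = 0.0519).

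The genes whose centred log2 CPM over the 12 libraries lay closest to each member were looked up among 9299 tested genes with a mean of at least 5 CPM. These are descriptions over the same 12 libraries. For *CEBPA* they were *FABP5*, *UTP20* and *LONP1*, with root mean square differences of 0.0611, 0.0724 and 0.0922. For *CEBPG* they were *GGCT* (0.0520), *TSEN15* (0.0585) and *C1orf174* (0.0660). For *CEBPB* they were *MEGF9* (0.125), *PLEK* (0.188) and *B3GNT8* (0.209). These differences are not scaled to the size of a gene's changes, and *CEBPB* had the largest log2 change of the 5 members with both drugs. The Pearson correlation of *MEGF9* with *CEBPB* was 0.998, as high as that of *TSEN15* with *CEBPG* (0.998). *MEGF9* went from 19.9 CPM in non-treated cells to 165 CPM with ATRA and 212 CPM with both drugs. *CEBPD* was closest to *AFF4* (0.0898), *STK38L* (0.0931) and *TIRAP* (0.0946), and *CEBPE* to *SLC45A4* (0.0784), *ERAP2* (0.0801) and *ADA* (0.107).

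Proteins that pair with C/EBPs or act on them, and genes known as C/EBP targets, were followed in lists. In each, the counts and median of CDK4/6i+ATRA against non-treated cells are given first, where 41.0% of all genes rose, 40.7% fell and the median over all genes was 0.02. The counts with ATRA are to be read beside 32.1% of all genes higher and 35.5% lower, and those with CDK4/6i beside 28.3% higher and 27.9% lower. Where a gene had at most 3 counts in every library of a group, its fold is a bound against 3 counts per library.

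Among 25 partners and regulators, 15 rose, 9 fell and 1 was not called (median 0.46). *FOS* and *JUN*, the components of AP-1 that can dimerize with C/EBPs, rose from 1.61 ± 0.181 to 131 ± 5.86 CPM and from 11.6 ± 1.92 to 226 ± 10.98 CPM (SD, n = 3). *JUN* fell with CDK4/6i alone (5.15 ± 0.365 CPM, -1.17, adjusted p = 1.88e-10, edgeR). *BATF2*, another basic leucine zipper factor and 1 of the 15, had at most 3 counts in each library without ATRA. It was tested only because it was high in the groups with ATRA. It was at least 64.2-fold higher with both drugs and at least 88.3-fold higher with ATRA. *E2F1*, a cell cycle factor that C/EBPα represses, fell from 50.5 ± 0.905 to 0.788 ± 0.498 CPM, and *MYB*, a progenitor factor, from 341 ± 5.72 to 11.2 ± 1.42 CPM. *ATF5*, a stress factor that pairs with C/EBPs, fell from 225 ± 15.4 to 27.4 ± 2.60 CPM. *TRIB1*, an adaptor through which COP1 degrades C/EBPα protein, was chosen after its values were seen. It was at 54.9 ± 2.74 CPM in non-treated cells, 66.7 ± 3.69 with CDK4/6i, 302 ± 10.3 with ATRA and 577 ± 7.04 CPM with both (SD, n = 3). Its relative *TRIB2*, chosen in the same way, went from 5.57 ± 0.567 to 55.6 ± 3.44 CPM with both drugs. With ATRA the list had 15 higher and 9 lower genes, and with CDK4/6i 8 higher and 11 lower (76.0% called, beside 56.2% of all genes).

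Of 17 early myeloid targets 13 were tested, and with both drugs 7 rose and 5 fell (median 0.73). The primary granule enzyme *MPO* fell from 6517 ± 168 CPM to 293 ± 27.4 with ATRA, 3469 ± 66.4 with CDK4/6i and 28.0 ± 5.15 CPM with both, the same order of groups as *CEBPA*. *MS4A3*, another promyelocyte gene, was lowest with ATRA alone (16.5 ± 0.850 CPM) rather than with both drugs (29.8 ± 2.18 CPM), and *KLF5* fell from 17.2 ± 0.936 to 3.32 ± 0.608 CPM. In the other direction, *CSF3R*, the G-CSF receptor and a C/EBPα target, rose from 38.9 ± 2.14 to 116 ± 10.1 CPM with both drugs. *ITGAM* (CD11b) rose from 9.24 ± 0.947 to 590 ± 13.4 CPM, and *SERPINB1*, an inhibitor of neutrophil proteases, from 56.7 ± 4.26 to 754 ± 34.0 CPM. The list had 6 higher and 7 lower genes with ATRA and 6 in each direction with CDK4/6i.

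Of 22 C/EBPε targets of the late granulocyte 13 were tested, and 10 rose and 3 fell with both drugs (median 3.22, or 3.02 with genes at the floor set to their bounds). Of the 13, 3 had at most 3 counts in every non-treated library and passed the filter through groups where they were high, so these counts and medians describe the tested genes only, and with at least 10 counts in every library 4 genes instead of 13 were called. Among the defining secondary granule genes, named here after their values were seen, *LTF* had 0 to 3 counts, *LCN2* 0 to 1 and *CAMP* 0 to 8 counts per library over the 4 groups, while *CEBPE* was at 165 to 424 CPM. Other granule genes of the list, also named after their values were seen, moved in both directions at few counts. *TCN1* fell with ATRA (-1.33, adjusted p = 4.29e-05) and with both drugs (-1.34, adjusted p = 0.000109, edgeR), and *MMP9* rose with both drugs (3.22, adjusted p = 7.31e-09) but did not pass with ATRA (0.29, adjusted p = 0.687). The collagenase *MMP8* had 0 counts in each non-treated library and 88 to 119 with both drugs, at least 52.2-fold higher, and *OLFM4* was at least 15.2-fold higher. *HP* went from 0 to 7 counts per library to 83 to 98, and *PGLYRP1* from 0 to 4 counts to 22 to 37 with ATRA and 14 to 18 with both drugs. At higher levels, *CYBB*, the catalytic subunit of the phagocyte oxidase, rose from 131 ± 2.98 to 3017 ± 83.7 CPM, and *CEACAM1* from 0.120 ± 0.208 to 93.4 ± 3.27 CPM. *BPI*, a bactericidal protein, was at 47.0 ± 5.22 CPM in non-treated cells, 149.5 ± 3.21 with CDK4/6i, 265 ± 9.88 with ATRA and 247 ± 11.8 CPM with both. *CEACAM6* fell from 16.4 ± 2.21 to 0.640 ± 0.104 CPM and *STOM* from 86.4 ± 5.07 to 29.3 ± 1.10 CPM. The interaction was called for 6 of the 13 genes (46.2%), 5 below the product and 1 above it, beside 51.4% of all tested genes. With ATRA 9 rose and 3 fell, and with CDK4/6i 6 rose and 1 fell.

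Of 30 inflammatory targets linked to C/EBPβ and C/EBPδ 18 were tested, and 14 rose and 3 fell with both drugs (median 5.39 over the 18, or 5.83 without *IL10*, which was at or near the floor in both groups). With at least 10 counts in every library 8 genes instead of 17 were called. *S100A12*, *TNF*, *ORM1* and *IL10* had at most 2 counts per non-treated library and were tested through groups where they were higher. *IL1B* was at 4.31 ± 0.297 CPM in non-treated cells, 14.0 ± 0.734 with CDK4/6i, 62.3 ± 9.81 with ATRA and 1451 ± 43.8 CPM with both (SD, n = 3). *IL1A* went from 0.235 ± 0.154 to 238 ± 4.43 CPM, and the calgranulin *S100A12* was at least 217-fold higher with both drugs. *IL6*, a classical C/EBPβ target, was not among the genes with enough reads, and *CSF3*, *CCL3*, *CXCL1* and *NOS2* were listed at 0 in every library (all 5 named after their values were seen). *CCL3* is also annotated on an alternate contig, and whether its zeros measure expression was not tested. *TLR9* fell from 18.2 ± 2.88 to 1.82 ± 0.500 CPM and *SOD2* from 94.6 ± 8.40 to 35.6 ± 0.371 CPM. With ATRA 13 rose and 4 fell, and with CDK4/6i 10 rose and 2 fell. With CDK4/6i, *CEBPD* (0.45) and *CEBPE* (0.21) were called higher and *CEBPB* was not called, and a link of any of them to this list was not tested.

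Of 26 genes of the amino acid stress response, in which C/EBPγ pairs with ATF4, 22 were tested. With both drugs 4 rose and 16 fell (median -1.43). *CEBPG* also fell, and so did *ATF4*, from 446 to 297 CPM, and a link of either to the list was not tested. The interaction was called above the product for 13 genes and below it for 6, beside 24.5% and 27.0% of all tested genes, whereas *CEBPG* stood below it. *PHGDH* and *PSAT1*, enzymes of serine synthesis, fell from 307 ± 8.49 to 5.73 ± 0.501 CPM and from 214 ± 14.4 to 5.63 ± 1.16 CPM, and *AARS1*, an aminoacyl-tRNA synthetase, from 158 ± 3.53 to 16.7 ± 0.650 CPM. The cystine transporter gene *SLC7A11* rose from 44.5 ± 1.85 to 349 ± 16.6 CPM, *WARS1* from 179.5 ± 8.77 to 649.5 ± 23.1 CPM and *DDIT4* from 36.7 ± 0.874 to 94.8 ± 4.17 CPM. With ATRA 4 rose and 18 fell (median -1.04), and with CDK4/6i 3 rose and 15 fell (median -0.52).

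Among 33 other myeloid transcription factors, 25 were tested, and 15 rose and 10 fell with both drugs (median 0.92). *MYC*, a driver of cell growth, fell from 1292 ± 12.2 to 84.4 ± 7.19 CPM and *GATA2* from 222 ± 2.50 to 14.7 ± 1.42 CPM, while *MYB* is given above. *EGR2*, *EGR3* and *BCL6* rose from 0.476 ± 0.0483 to 248 ± 1.75 CPM, from 0.332 ± 0.222 to 64.3 ± 8.94 CPM and from 1.40 ± 0.523 to 184 ± 11.2 CPM. The 18 names of the retinoid list include *PLAAT4* under an older symbol too, and 17 were in the table. The 13 tested rose with both drugs (median 5.72), and with CDK4/6i 4 rose and 1 fell. With at least 10 counts in every library 6 were called. *TGM2* and *DHRS3*, at the floor in non-treated cells, were at least 10520-fold and at least 1061-fold higher with both drugs.

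**Figure D5:**
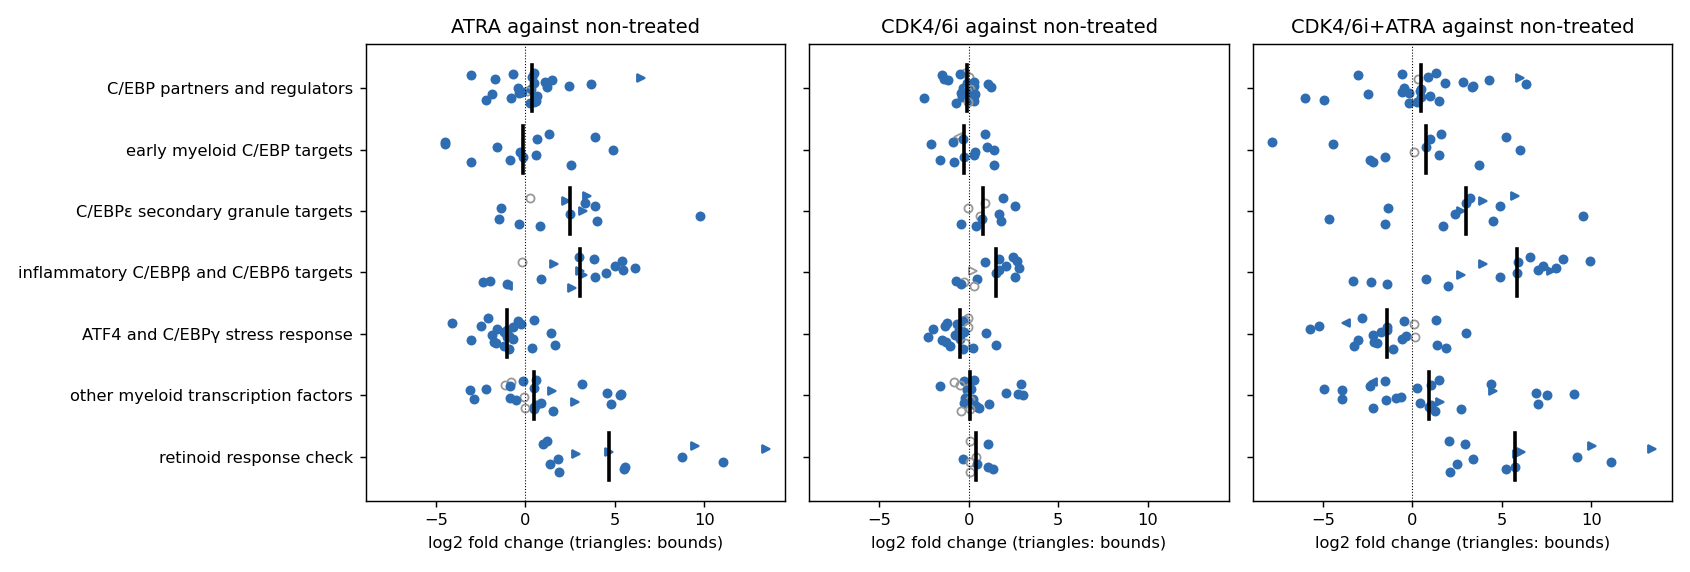
Log2 fold change against non-treated cells of each tested gene of the 7 lists, filled where the adjusted p was under 0.05 and open where it was not, with triangles for bounds of genes at the floor of 3 counts, a black bar for the median of the genes shown, and genes at or near the floor in both groups left out. With CDK4/6i+ATRA the inflammatory list, shown without *IL10*, has a median of 5.83 and the ATF4 and C/EBPγ list of -1.43.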

How the data were processed

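Total RNA of HL60 cells was sequenced with a directional library kit, and per the labels and the paper the authors trimmed reads with Trimmomatic 0.33, aligned them with STAR 2.7.11a to hg38 under RefSeq, and tested with DESeq2. The authors deposited raw read counts per gene, whole numbers without normalization. The paper names RSEM, whereas the table has the layout of featureCounts, and no molecular identifiers are stated, so reads are not independent molecules and bounds cover counting error only. No column lacked a sample. Groups came from the labels.

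Of 59251 genes, filterByExpr (4 groups) kept 13318. Counts were normalized with TMM and fitted in edgeR 4.0.16 (R 4.3.3) with a quasi-likelihood test on all 12 libraries (8 residual degrees of freedom, common biological coefficient of variation 3.70%). Adjusted p-values are Benjamini-Hochberg values over all tested genes, with a threshold of 0.05. Log2 CPM for likeness used a prior count of 2. Members and lists were chosen with earlier results of these data known. The 7 lists hold 159 distinct genes, 11 of them in more than 1 list. Named from each list were the 3 largest rises and falls with both drugs against non-treated cells among called genes with a mean of at least 5 CPM. Also named were the 3 genes most like each member and genes within 100 kb with a mean of at least 1 CPM, of which those described are a part. Any other gene named from the lists or the markers falls outside this rule. Such genes were chosen after their values were seen, also where the text gives no mark. Alternatives were DESeq2 1.42.0, DESeq2 size factors, library size alone, other filters, fits of the compared groups only, the replicate block and leaving out each library. The fitting steps were tested on simulated data.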

Additional observations from a re-analysis of the deposited data

Results flagged for a closer look

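The effect of one drug on a member differed with the presence of the other drug in the interaction test (edgeR's quasi-likelihood test, Benjamini-Hochberg over all tested genes) for all 5 members. The interaction was -0.74 for *CEBPE* (adjusted p = 8.27e-17), -0.26 for *CEBPG* (adjusted p = 0.00337), -0.19 for *CEBPA* (adjusted p = 0.00467), 0.48 for *CEBPD* (adjusted p = 0.000969) and 0.27 for *CEBPB* (adjusted p = 0.000928), all on the log2 scale. The last 2 lost their calls with libraries scaled by their totals alone, and over all tested genes 51.4% were called.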

How the results depend on the processing

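With library size alone in place of TMM, *CEBPB* no longer differed between CDK4/6i+ATRA and ATRA (0.012, adjusted p = 0.812), its interaction turned to -0.045 (adjusted p = 0.628) and the interaction of *CEBPD* was 0.16 (adjusted p = 0.279), where the median interaction of all genes was -0.34 instead of -0.02. Without the filter on low counts the interaction of *CEBPB* was 0.19 (adjusted p = 0.0635), and the cause was not tested. The other 236 member values under alternatives other than leaving out a library kept their direction and their side of the threshold. With at least 10 counts in every library fewer genes were tested, and the counts called with both drugs were 4 instead of 13 for the C/EBPε list, 8 instead of 17 for the inflammatory list and 6 instead of 13 for the retinoid list. With CPM in place of RPKM, the change of the *CEBPE* share with ATRA was 11.3 points (adjusted p = 0.00556, exact permutation test) instead of 7.96 (adjusted p = 0.111). Leaving out each library in turn changed no member's direction or call (420 values). No sign of pairing by replicate number was seen: the 18 correlations between same-numbered libraries ran from -0.0702 to 0.0328. They cannot show whether those samples were handled together, which the labels do not say. With the replicate block, 8915 instead of 9006 genes were called with ATRA and 6775 instead of 6852 for the interaction, and no call of a member changed. A count of 3, below which a level could not be told from 0, stood for 0.156 to 0.275 CPM.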
